A study of Mus musculus with 6 samples.

Results

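The genes described here are 50 genes of DNA replication and S phase, picked by name from the parts of the replication machinery and its control. All 50 were found among the 23337 genes of the count table. Polyadenylated RNA was sequenced from C57BL6 mouse bone marrow granulocyte-monocyte progenitors that carry ER-HOXA9, in 3 groups of 2 libraries each. One group received 200 nM GSK-LSD1, 5 µM mercaptopurine and 5 µM cerulenin together for 3 days, the vehicle group received DMSO for 3 days, and the day 0 group was untreated and sampled as the experiment began. All groups grew with stem cell factor and 0.5 µM beta-estradiol. GSK-LSD1 inhibits the histone demethylase LSD1, mercaptopurine is a purine analogue used against leukaemia, and cerulenin inhibits fatty acid synthase. In ER-HOXA9 cells the HOXA9 protein is fused to the hormone-binding part of the oestrogen receptor, and with oestrogen present it keeps progenitors from maturing. The drugs were given only as a combination, so no change can be assigned to 1 of them. The series asks whether joint epigenetic and metabolic treatment ends the block of maturation in leukaemia models, and the comparison of drugs with vehicle addresses that question for the replication genes.

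Replication starts at origins that the origin recognition complex (ORC) marks. CDC6 and CDT1 load the ring of MCM2 to MCM7 there in G1, and CDC45 and the GINS complex then turn that ring into an active helicase. Polymerase alpha with primase starts each strand, the RFC complex loads the PCNA clamp, and polymerases delta and epsilon extend the DNA. Many of these genes are targets of E2F transcription factors, which act at the passage from G1 into S phase and are held back by retinoblastoma proteins. In haematopoiesis, proliferating progenitors express the set strongly, and it is low in mature granulocytes that have left the cycle.

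Libraries held 11305666 to 16948697 counts, of which Rn45s, the ribosomal RNA precursor, took between 14.6% and 24.6%. Its share was 15.7% and 15.9% with the drugs, 16.1% and 14.6% with vehicle and 20.4% and 24.6% at day 0. Levels below are in CPM, counts brought to a common library size with the trimmed mean of M values. All 10 markers listed for granulocyte-monocyte progenitors (among them Kit, Mpo and Elane) were present, with summed levels of 10809 to 11357 CPM with the drugs, 8776 to 9002 CPM with vehicle and 7876 to 8175 CPM at day 0. Mpo makes up most of that sum, and with the drugs against vehicle 4 of the 10 rose (Kit, Mpo, Fcgr3 and Fcgr2b) and 3 fell (Hoxa9, Cebpa and Ctsg; edgeR). Hoxa9 had 192 and 193 CPM with the drugs, against 288 and 275 CPM with vehicle (log2 change -0.55 ± 0.0696, adjusted p = 6.44e-05). Its counts do not tell RNA of the cells' own gene from RNA of the ER-HOXA9 construct. T cell markers summed to at most 0.0790 CPM in any library (4 of 5 were at 0 throughout) and erythroid markers to at most 1.79 CPM (4 of 8 at 0). B cell markers, all 5 of them found and none at 0 throughout, summed to 11.8 to 12.5 CPM with the drugs, 13.1 to 14.1 CPM with vehicle and 13.4 to 16.0 CPM at day 0. The 6 mast cell and basophil markers summed to 1214 to 1302 CPM with the drugs, 542 to 558 CPM with vehicle and 969 to 1155 CPM at day 0, mostly from Cpa3, with Fcer1a and Tpsb2 at 0. The 6 stromal markers summed to 276 to 280.3 CPM with the drugs, 191 to 202 CPM with vehicle and 249 to 256 CPM at day 0, mostly from Pecam1, which blood cells also express, with Col3a1 and Cdh5 at 0. Of the mast cell and basophil markers 2 rose (Cpa3 and Gata2) and 1 fell (Mcpt8) with the drugs against vehicle. Of the 3 tested stromal markers 2 rose and 0 fell, the rises being of Pdgfrb (log2 change 0.64) and Pecam1 (0.48). Of the 2 tested B cell markers Cd79a rose (0.84) and Cd79b fell (-0.45), calls that DESeq2 did not make. Beside these marker calls, 18.1% of all tested genes rose and 13.8% fell with the drugs against vehicle, or 31.9% either way. Single markers thus moved in both directions with the treatment, and their part in the results on replication genes was not tested.

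With the drugs, helicase genes such as Mcm2 and Mcm6, and Uhrf1, fell against vehicle, E2f2 rose, and 35 of the 50 replication genes were not called. All 50 passed the filter on low counts, and 14 fell and 1 rose (edgeR quasi-likelihood F test, Benjamini-Hochberg adjusted p below 0.05 over 11283 genes). The falls were 28% of the 50 genes, beside 13.8% of all tested genes, and the rise was 2%, beside 18.1%. Calls in either direction were 30%, beside 31.9%. Both drug libraries lay below both vehicle libraries for 33 genes and above them for 4, beside 33.7% and 35.1% of all tested genes. The median log2 change was -0.16, against 0.00075 over all tested genes, and 40 of the 50 values were below 0. No fall exceeded 1.5-fold, a size passed by called falls in 2.66% of tested genes, and the rise of E2f2 did, as did called rises in 9.86%. The 50 genes together took 0.552% and 0.557% of the counts outside Rn45s with the drugs, against 0.631% and 0.658% with vehicle and 0.614% and 0.622% at day 0. In these bulk libraries fewer cells in S phase and less of each RNA per cell cannot be told apart.

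Leaving out 1 library at a time changed the number of falls to between 4 and 19. The 4 calls kept in every alternative were the rise of E2f2 and the falls of Mcm2, Mcm6 and Uhrf1. Without drugs replicate 1, 4 of the 14 falls were called, and without drugs replicate 2, 5 of them, while the median over the 50 genes stayed between -0.19 and -0.11 without any 1 library. DESeq2 called 8 of the 14 falls, and not those of Orc2, Mcm4, Rfc2, Rpa1, Pold1 and Chaf1b (adjusted p from 0.0535 for Chaf1b to 0.112 for Rpa1).

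**Figure D1:**
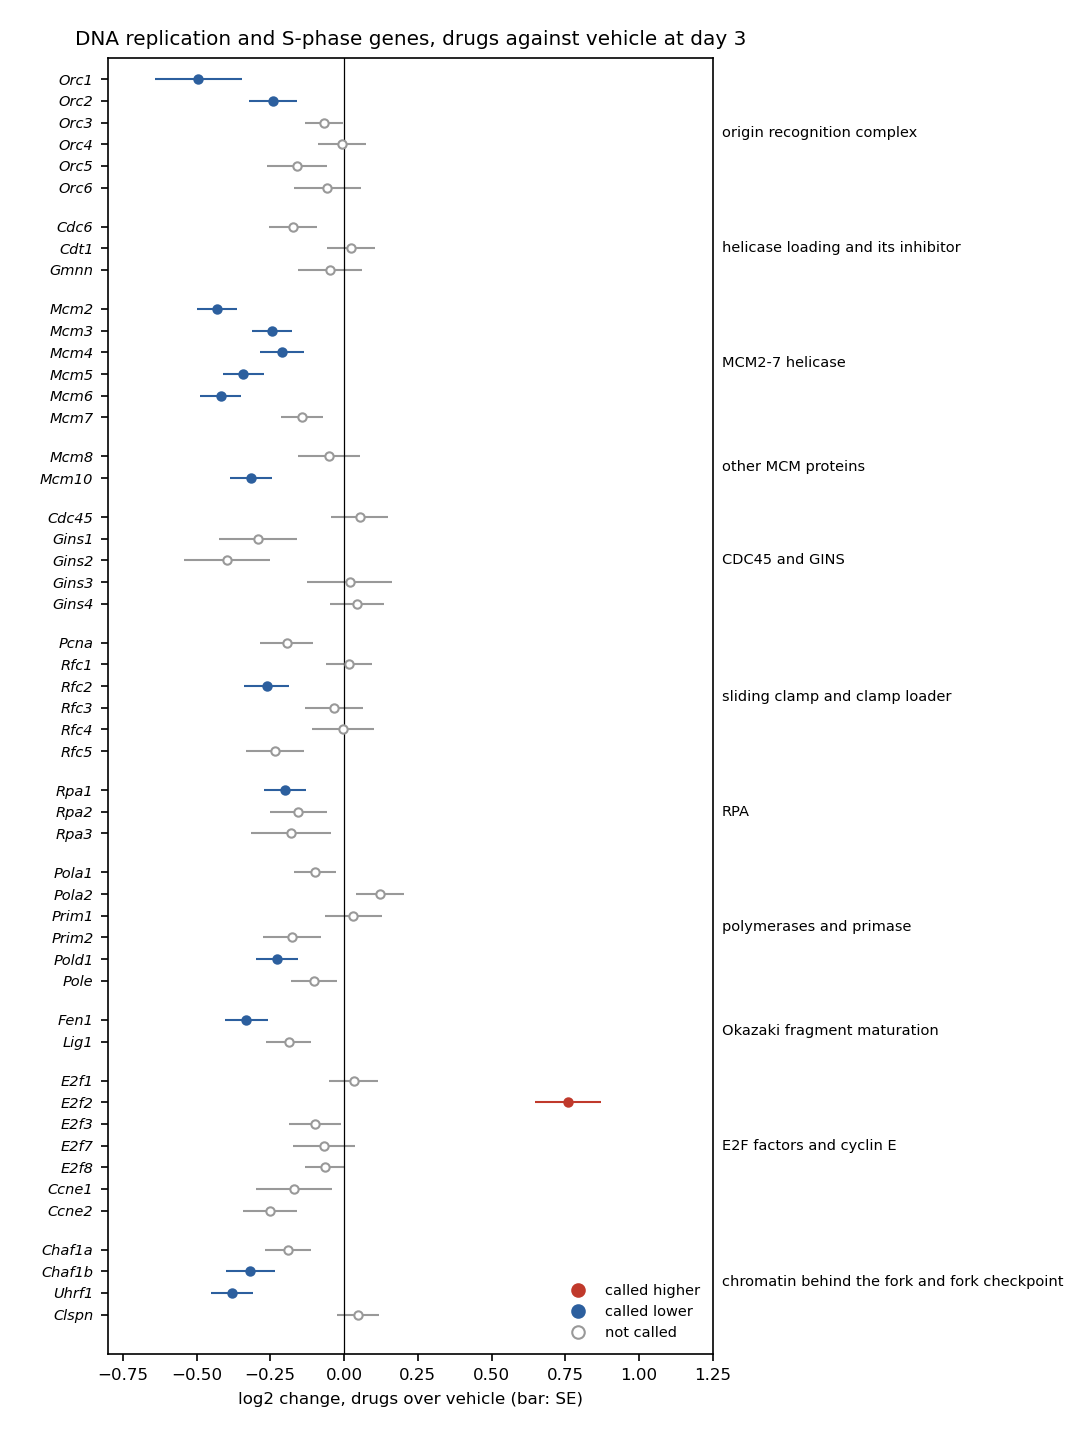
The plot of log2 changes with the drugs against vehicle gives 1 point per gene with its SE (horizontal axis, log2 scale), grouped by role down the page; filled points passed the adjusted p of 0.05. MCM genes sit left of 0, the CDC45 and GINS genes straddle it except for Gins1 and Gins2, and E2f2 stands alone on the right at 0.76.

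Promoter windows of 7 genes called with the drugs against vehicle are shown because E2F factors are known to bind such genes near their starts. They come from RefSeq on GRCm38.p6, the assembly behind mm10, and run from 250 bases before to 50 bases after an annotated start, 5′ to 3′ on the gene's strand. The table holds 51 windows for 41 of the 50 genes and none for Gmnn, Gins1, Prim2, Gins2, Gins4, Ccne2, Mcm4, Rfc2 and Pole. The windows are those of E2f2 (chr4:136172024-136172323, plus strand), Mcm2 (chr6:88898731-88899030, minus strand), Uhrf1 (chr17:56303087-56303386, plus strand), Fen1 (chr19:10203872-10204171, minus strand), Mcm10 (chr2:5012742-5013041, minus strand), Orc1 (chr4:108579204-108579503, plus strand) and Mcm6 (chr1:128359656-128359955, minus strand). Mcm6 was added after its matches were seen, as the called gene with the most E2F matches. Capitals mark the E2F letters TTTCCCGC, TTTCGCGC, TTTGCCGC or TTTGGCGC on either strand, so a match on the other strand shows as its complement read backwards.
E2f2: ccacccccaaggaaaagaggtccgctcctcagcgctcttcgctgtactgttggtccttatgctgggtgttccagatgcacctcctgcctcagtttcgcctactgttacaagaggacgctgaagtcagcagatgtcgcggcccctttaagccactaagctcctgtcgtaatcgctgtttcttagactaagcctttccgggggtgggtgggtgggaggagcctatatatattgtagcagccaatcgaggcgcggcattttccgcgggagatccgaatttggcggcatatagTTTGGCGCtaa
Mcm2: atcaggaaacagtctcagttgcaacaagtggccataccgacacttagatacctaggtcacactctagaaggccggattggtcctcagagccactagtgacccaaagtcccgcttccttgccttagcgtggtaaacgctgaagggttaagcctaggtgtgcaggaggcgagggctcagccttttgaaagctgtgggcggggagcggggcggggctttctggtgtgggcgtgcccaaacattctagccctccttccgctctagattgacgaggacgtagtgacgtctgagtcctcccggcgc
Uhrf1: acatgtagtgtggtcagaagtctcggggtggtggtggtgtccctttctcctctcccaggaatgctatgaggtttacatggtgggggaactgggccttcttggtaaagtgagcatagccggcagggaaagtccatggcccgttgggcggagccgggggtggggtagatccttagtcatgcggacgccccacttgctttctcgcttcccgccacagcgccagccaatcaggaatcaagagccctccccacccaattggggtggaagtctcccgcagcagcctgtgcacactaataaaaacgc
Fen1: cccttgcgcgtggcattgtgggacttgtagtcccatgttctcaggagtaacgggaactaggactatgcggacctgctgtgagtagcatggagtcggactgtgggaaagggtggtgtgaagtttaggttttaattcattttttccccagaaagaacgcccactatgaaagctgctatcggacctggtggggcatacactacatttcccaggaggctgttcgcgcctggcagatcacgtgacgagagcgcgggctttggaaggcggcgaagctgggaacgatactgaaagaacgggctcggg
Mcm10: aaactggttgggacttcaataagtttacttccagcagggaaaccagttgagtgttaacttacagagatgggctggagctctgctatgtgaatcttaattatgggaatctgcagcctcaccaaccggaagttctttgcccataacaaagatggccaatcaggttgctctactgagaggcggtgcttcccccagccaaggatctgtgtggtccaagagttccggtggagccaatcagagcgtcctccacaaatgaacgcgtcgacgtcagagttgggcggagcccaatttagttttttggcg
Orc1: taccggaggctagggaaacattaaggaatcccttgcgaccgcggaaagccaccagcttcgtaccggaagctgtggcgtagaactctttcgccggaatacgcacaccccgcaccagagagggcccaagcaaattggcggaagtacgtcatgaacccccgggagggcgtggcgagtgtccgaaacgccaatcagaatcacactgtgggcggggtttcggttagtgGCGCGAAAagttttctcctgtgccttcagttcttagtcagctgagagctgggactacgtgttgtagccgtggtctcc
Mcm6: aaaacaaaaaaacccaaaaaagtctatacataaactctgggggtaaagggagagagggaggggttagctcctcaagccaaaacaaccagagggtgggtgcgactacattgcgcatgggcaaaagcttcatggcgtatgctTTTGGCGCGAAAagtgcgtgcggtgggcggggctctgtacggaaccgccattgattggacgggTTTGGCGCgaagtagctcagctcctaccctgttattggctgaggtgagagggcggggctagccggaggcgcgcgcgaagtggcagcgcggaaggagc

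Counting the start as 0, E2f2 had 1 match at position 39, Orc1 had 1 at -27 and Mcm6 had 3, at -110, -106 and -47, the first pair overlapping. The windows of Mcm2, Fen1 and Mcm10 held none of these letters, and neither did the printed window of Uhrf1, whose other window had a match at -185. The other window of E2f2 held none. The annotated start lay 120 bases from the start in the count table for E2f2, 49 for Mcm6 and 22 for Fen1. A stretch of 30 bases after that start was found in 0 GENCODE transcripts for E2f2 and for Mcm6. For the other printed windows it was found in 1 to 3 transcripts. The starts of the E2f2 and Mcm6 windows are therefore less certain. E2F letters stood in 19 of the 51 windows, or 37.3%, beside 4.12% of 10310 windows of tested genes and 2.26% of all 32851 windows. Within 50 bases of the start they stood in 27.5% of the replication gene windows, beside 1.42% of windows of tested genes. The CCAAT box, the site of NF-Y, stood in 62.7% against 38.5% of windows of tested genes (letters CCAAT, either strand) and 37.4% of all windows. The CHR element of genes of later cycle phases stood in 17.6% against 14.0% of windows of tested genes (letters TTTGAA or TTCGAA, either strand). Among all windows the CHR share was 19.2%, above that of the replication genes. Matches of different motifs overlapped at 1 place in the windows of these genes. Among genes with E2F letters in a window, 1 rose, 6 fell and 12 were not called with the drugs against vehicle. Among genes with a window but without the letters, 6 fell and 16 were not called. Over all tested genes 13.8% fell and 18.1% rose. Falls thus came with and without the letters, and a difference between the 2 sets was not tested. A match is a description of the sequence and not a bound site.

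**Figure D2:**
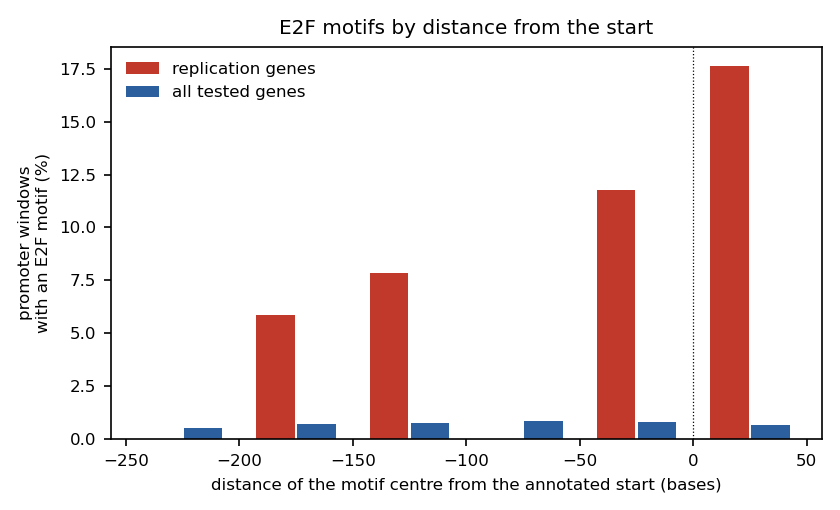
The plot of E2F letters by position gives the percentage of promoter windows with a match (vertical axis) in bins of 50 bases before and after the annotated start (horizontal axis), for windows of the replication genes and of all tested genes. The replication gene windows peak in the last bin, at 17.6% between the start and 50 bases after it, where windows of tested genes stand at 0.669%.

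Among the 6 ORC subunits, which bind origins, 2 fell with the drugs against vehicle. Over all tested genes 13.8% fell, 18.1% rose and 31.9% were called either way, shares to set beside this and the role groups below. Orc1 (chr4:108579454-108614831), the large ATP-binding subunit that is itself an E2F target, had 15.3 and 12.3 CPM with the drugs, 19.8 and 18.8 CPM with vehicle and 15.9 and 20.6 CPM at day 0. It fell by 29.0% (log2 change -0.49 ± 0.147, adjusted p = 0.0217), the largest fall by log2 change among the 50 with all 6 libraries. Drug libraries lay below vehicle libraries, and the pair of drug libraries differed more from each other than the pair of vehicle libraries did. The Orc1 call was lost without drugs replicate 2 (adjusted p = 0.221) and without vehicle replicate 1 (adjusted p = 0.0853). Orc2 had 87.4 and 90.1 CPM with the drugs, 107 and 103 CPM with vehicle and 92.2 and 108 CPM at day 0 (log2 change -0.24 ± 0.0807, adjusted p = 0.0366 for drugs against vehicle). That call was lost without drugs replicate 1 (adjusted p = 0.223), drugs replicate 2 (0.130) and vehicle replicate 1 (0.137). The other ORC genes were not called, with log2 changes from -0.16 for Orc5 to -0.0065 for Orc4.

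Of the 3 helicase loading genes 0 were called with the drugs against vehicle by edgeR or DESeq2, and 0 had an unadjusted p under 0.05. Cdc6, a loader that is degraded in quiescent cells, had 43.9 and 49.6 CPM with the drugs and 52.4 and 53.1 CPM with vehicle (log2 change -0.17 ± 0.0812, adjusted p = 0.128). The loader Cdt1 and its inhibitor geminin, encoded by Gmnn, overlapped between drug and vehicle libraries, with log2 changes of 0.024 and -0.047.

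Of the MCM2 to MCM7 helicase genes, 5 of 6 fell with the drugs, beside 13.8% of tested genes. Both drug libraries lay below both vehicle libraries for all 6, beside 33.7% of tested genes. Mcm2 (chr6:88883474-88898780) had 172 and 171 CPM with the drugs, 227 and 236 CPM with vehicle and 229 and 229.7 CPM at day 0. It fell by 25.8% against vehicle (log2 change -0.43 ± 0.0678, adjusted p = 0.000379). Mcm6 (chr1:128331591-128359656) had 311 and 308 CPM with the drugs, 415 and 413 CPM with vehicle and 388 and 396 CPM at day 0, and fell by 25.2% against vehicle (log2 change -0.42 ± 0.0702, adjusted p = 0.000607). Libraries of 1 group lay close together for both genes, and the drug libraries stood apart from the other 4. Over all alternatives the log2 change of Mcm2 ranged from -0.46 to -0.42 and that of Mcm6 from -0.45 to -0.41.

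Mcm5 had 189 and 193 CPM with the drugs, 239 and 245 CPM with vehicle and 226 and 238 CPM at day 0 (log2 change -0.34 ± 0.0694, adjusted p = 0.00242 for drugs against vehicle). Mcm3 had 221 and 221 CPM with the drugs, 259 and 264 CPM with vehicle and 258 and 268 CPM at day 0 (log2 change -0.24 ± 0.0688, adjusted p = 0.0167). Mcm4 had 203 and 204 CPM with the drugs, 239 and 233 CPM with vehicle and 214 and 239 CPM at day 0 (log2 change -0.21 ± 0.0746, adjusted p = 0.0461). For each of these 3 genes the drug libraries were the lowest of the 6. Mcm7 had 377 and 383 CPM with the drugs, 413 and 425 CPM with vehicle and 422 and 436 CPM at day 0, and its log2 change of -0.14 ± 0.0715 was not called (adjusted p = 0.153). Without drugs replicate 1 the adjusted p was 0.0584 for Mcm5, 0.159 for Mcm3 and 0.2496 for Mcm4. Without drugs replicate 2 it was 0.138 for Mcm3 and 0.205 for Mcm4, with 0.0539 and 0.159 for the same genes after leaving out vehicle replicate 1, and 0.0547 and 0.0708 after leaving out vehicle replicate 2. The log2 change of Mcm3 stayed between -0.28 and -0.24 in all alternatives.

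Levels of different genes can be set side by side only per length, as RPKM, which divides CPM by gene length in kilobases. With the drugs the order was Mcm7 at 158 ± 1.71 RPKM, Mcm6 at 107 ± 0.637, Mcm3 at 76.5 ± 0.0550, Mcm4 at 56.7 ± 0.261, Mcm5 at 55.8 ± 0.720 and Mcm2 at 51.0 ± 0.272 (SD, n = 2). With vehicle it was Mcm7 at 175 ± 3.65 RPKM, Mcm6 at 143 ± 0.460, Mcm3 at 90.6 ± 1.005, Mcm5 at 70.7 ± 1.36, Mcm2 at 68.7 ± 1.85 and Mcm4 at 65.7 ± 1.16 (SD, n = 2). Mcm4 and Mcm5 with the drugs, and Mcm5, Mcm2 and Mcm4 with vehicle, are neighbours whose order lies near or within the spread of the libraries. The RNAs of 1 hexamer thus differed up to the distance between Mcm7 and Mcm2 or Mcm4.

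**Figure D3:**
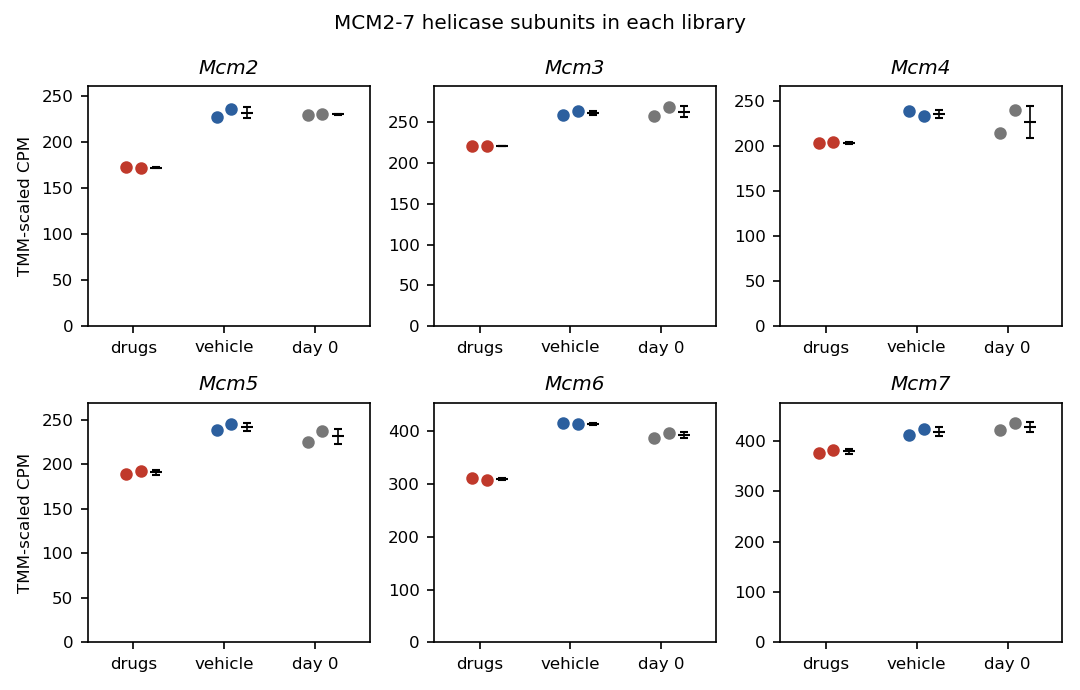
The plot of MCM levels by library gives scaled CPM (vertical axis) for Mcm2 to Mcm7, with 1 point per library in the drug, vehicle and day 0 groups and a bar for the mean ± SD. In each panel the drug points are the lowest, for example 172 and 171 CPM for Mcm2.

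Mcm10, a scaffold that helps start the helicase, had 65.0 and 65.1 CPM with the drugs, 77.9 and 83.9 CPM with vehicle and 81.2 and 86.2 CPM at day 0. It fell against vehicle (log2 change -0.32 ± 0.0723, adjusted p = 0.00514), a call lost without drugs replicate 1 (adjusted p = 0.0617) or replicate 2 (0.0549). Mcm8, which works in recombination repair, was not called (log2 change -0.050 ± 0.105). Among CDC45 and the GINS subunits, which complete the helicase, 0 of 5 were called by edgeR or DESeq2, and 2 had an unadjusted p under 0.05, both of them lower. Gins2 had 14.7 and 16.4 CPM with the drugs, 17.2 and 24.0 CPM with vehicle and 22.2 and 22.0 CPM at day 0 (log2 change -0.40 ± 0.146, adjusted p = 0.0536). Vehicle replicate 1 was the low vehicle library for Gins2, and without it the log2 change was -0.62. Over all alternatives the log2 change of Gins2 ranged from -0.62 to -0.15. In all, 7 of 13 alternatives called Gins2 lower. Cdc45, Gins3 and Gins4 had log2 changes of 0.053, 0.019 and 0.045.

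Of the clamp and its loader, only Rfc2 was called with the drugs against vehicle among 6 genes, beside 31.9% of tested genes. Rfc2, a small subunit of the loader, had 79.4 and 80.4 CPM with the drugs, 92.9 and 98.7 CPM with vehicle and 104 and 91.6 CPM at day 0 (log2 change -0.26 ± 0.0766, adjusted p = 0.0200). The fall was no longer called without drugs replicate 1 (adjusted p = 0.146), drugs replicate 2 (0.113) or vehicle replicate 2 (0.0825). Pcna, the clamp itself, had 205 and 216 CPM with the drugs, 222 and 260.1 CPM with vehicle and 253 and 225 CPM at day 0 (log2 change -0.19 ± 0.0886, adjusted p = 0.114). Vehicle replicate 1 was the lower vehicle library for Pcna and for Rfc5, and without it their log2 changes were -0.31 and -0.37. Over all alternatives the log2 change ranged from -0.31 to -0.092 for Pcna and from -0.37 to -0.10 for Rfc5. Alternatives that called them lower numbered 2 of 13 for Pcna and 5 of 13 for Rfc5. Rfc1, Rfc3 and Rfc4 had log2 changes between -0.034 and 0.016.

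Single-stranded DNA is covered by RPA, whose 3 genes all had drug libraries below vehicle libraries, beside 33.7% of tested genes. Rpa1, the large subunit, had 136 and 133 CPM with the drugs, 148 and 159.8 CPM with vehicle and 132 and 141 CPM at day 0, and fell against vehicle (log2 change -0.20 ± 0.0710, adjusted p = 0.0487). Its call was lost without drugs replicate 1 (adjusted p = 0.202), drugs replicate 2 (0.258) and vehicle replicate 2 (0.186). Rpa2 and Rpa3 were not called, with log2 changes of -0.15 ± 0.0960 and -0.18 ± 0.136.

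Among 6 polymerase and primase genes 1 fell with the drugs, beside 13.8% of tested genes. Pold1, the catalytic subunit of polymerase delta, had 117 and 112 CPM with the drugs, 138 and 130.4 CPM with vehicle and 117 and 127 CPM at day 0 (log2 change -0.23 ± 0.0716, adjusted p = 0.0284). The drug libraries were the lower pair, and the call was lost without drugs replicate 1 (adjusted p = 0.122), drugs replicate 2 (0.219) or vehicle replicate 1 (0.139). Pole, of polymerase epsilon, and Pola1, of polymerase alpha, had log2 changes of -0.10 and -0.099. Pola2 was the highest of the group at 0.12 ± 0.0802 and was not called.

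Fen1, the nuclease that trims the flaps of Okazaki fragments, had 108 and 117 CPM with the drugs, 139.7 and 143 CPM with vehicle and 147 and 136 CPM at day 0. It fell by 20.5% against vehicle (log2 change -0.33 ± 0.0722, adjusted p = 0.00379), and the call was lost without drugs replicate 1 (adjusted p = 0.0923). Lig1, the ligase that seals the fragments, had 124 and 128 CPM with the drugs and 143 and 144 CPM with vehicle and was not called (log2 change -0.19 ± 0.0764, adjusted p = 0.0801), though 5 of 13 alternatives called it lower. Drug libraries lay below vehicle libraries for both genes, as they did for 33.7% of tested genes.

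Of the 4 genes of chromatin behind the fork and of its checkpoint, Uhrf1 and Chaf1b fell, beside 13.8% of tested genes. Uhrf1 (chr17:56303337-56323486), which brings DNA methyltransferase 1 to newly copied DNA, had 228 and 234 CPM with the drugs, 300.1 and 300.5 CPM with vehicle and 271 and 291 CPM at day 0. It fell by 23.2% against vehicle (log2 change -0.38 ± 0.0720, adjusted p = 0.00148). Vehicle libraries were the highest and drug libraries the lowest, with day 0 between them. Chaf1b, a subunit of the histone chaperone CAF-1, had 33.2 and 33.2 CPM with the drugs, 40.3 and 42.5 CPM with vehicle and 41.9 and 44.4 CPM at day 0 (log2 change -0.32 ± 0.0824, adjusted p = 0.0107). Its call was lost without drugs replicate 1 (adjusted p = 0.0885) or replicate 2 (0.0843). Chaf1a, of the same complex, had drug libraries below vehicle libraries and a log2 change of -0.19 ± 0.0773 (adjusted p = 0.0787), and was called lower in 6 of 13 alternatives. Clspn, which passes the fork checkpoint signal, had a log2 change of 0.048 ± 0.0711 and was not called.

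Of the E2F and cyclin E genes, 1 of 7 rose with the drugs and 0 fell with edgeR or DESeq2 when all 6 libraries were fitted under the main settings. The lower gene with an unadjusted p under 0.05 was Ccne2, which was called lower in 8 of 13 alternatives. E2f2 (chr4:136172394-136196056), an activator E2F, had 24.9 and 26.7 CPM with the drugs, 15.8 and 14.7 CPM with vehicle and 12.4 and 14.0 CPM at day 0. It rose by 69.3% against vehicle (log2 change 0.76 ± 0.111, adjusted p = 0.000203), with a log2 change between 0.69 and 0.81 in all alternatives. The drug libraries stood clear of the other 4, and the direction was opposite to that of the MCM genes. Neither of the other activators was called. E2f1 had 38.4 and 36.1 CPM with the drugs, 36.4 and 36.3 CPM with vehicle and 34.0 and 35.7 CPM at day 0 (log2 change 0.033 ± 0.0832). E2f3 had 76.9 and 77.6 CPM with the drugs, 81.9 and 83.4 CPM with vehicle and 66.1 and 80.9 CPM at day 0 (log2 change -0.097 ± 0.0879). The drug and vehicle libraries of E2f1 overlapped, and those of E2f3 differed by less than its day 0 libraries did.

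The atypical E2Fs, repressors that act without a DP partner, were not called between drugs and vehicle. E2f7 had 22.1 and 21.0 CPM with the drugs, 23.0 and 22.1 CPM with vehicle and 13.6 and 15.3 CPM at day 0 (log2 change -0.067 ± 0.105 for drugs against vehicle). E2f8 had 107 and 104 CPM with the drugs, 111 and 109 CPM with vehicle and 95.8 and 104 CPM at day 0 (log2 change -0.064 ± 0.0693). For E2f7 both day 3 groups were well above day 0. Ccne1, a cyclin that activates CDK2 at the start of S phase, had 16.3 and 14.8 CPM with the drugs, 15.7 and 19.3 CPM with vehicle and 14.5 and 15.3 CPM at day 0 (log2 change -0.17 ± 0.128). Its relative Ccne2 had 49.7 and 53.6 CPM with the drugs, 63.8 and 59.3 CPM with vehicle and 44.0 and 52.3 CPM at day 0 (log2 change -0.25 ± 0.0916, adjusted p = 0.0529). Both vehicle libraries of Ccne2 lay above the other 4. Per length, E2f8 was the most abundant E2F RNA of the 5 with the drugs (28.5 ± 0.558 RPKM), followed by E2f3 (15.2 ± 0.103) and E2f1 (15.1 ± 0.640), which lay within their spread of each other, then E2f2 (5.45 ± 0.2698) and E2f7 (3.93 ± 0.146; SD, n = 2). With vehicle E2f2 was the lowest, at 3.22 ± 0.163 RPKM, below E2f7 at 4.12 ± 0.1201 RPKM.

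**Figure D4:**
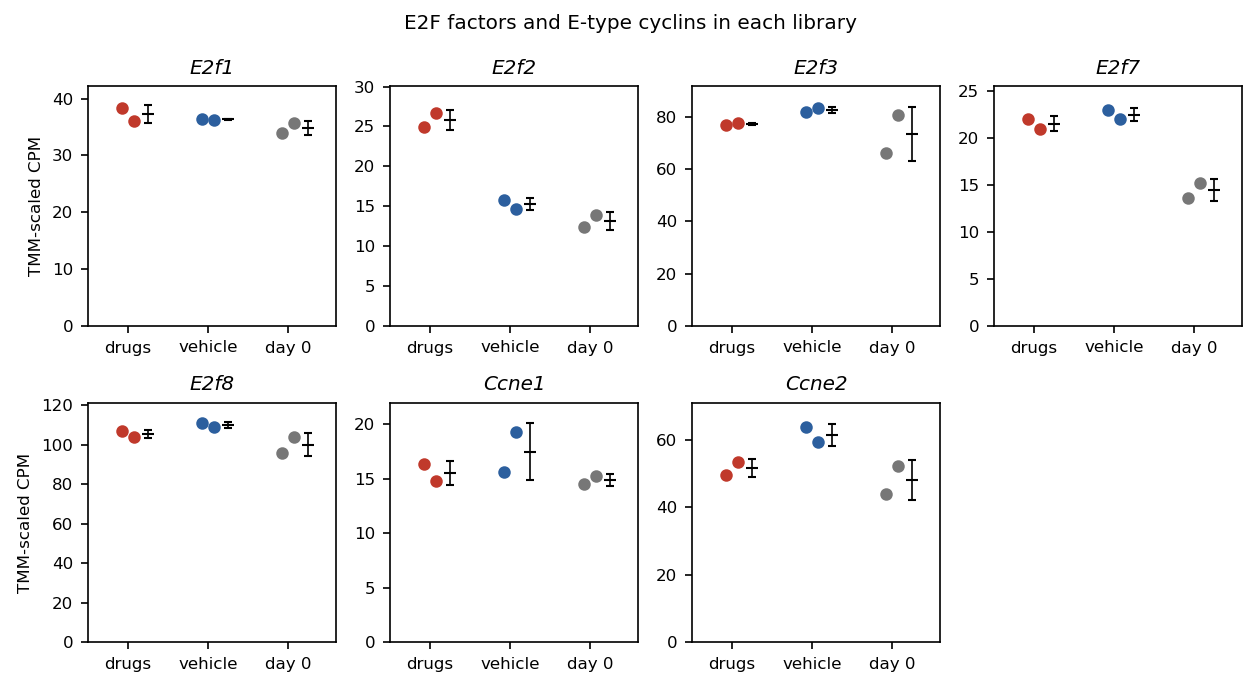
The plot of E2F and cyclin E levels by library gives scaled CPM (vertical axis) for 5 E2F genes, Ccne1 and Ccne2, with 1 point per library in the drug, vehicle and day 0 groups and a bar for the mean ± SD. E2f2 is highest in the drug libraries, at 24.9 and 26.7 CPM, while E2f7 stands above day 0 in both day 3 groups.

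Vehicle against day 0 asks what 3 days of culture with DMSO did without the drugs, and here few replication genes moved. Time in culture and DMSO cannot be told apart in it. E2f7 and Ccne2 rose, which is 2 of 50 beside 3.75% of tested genes called higher, and 0 fell (edgeR), beside 3.99% called lower and 7.74% called either way. With DESeq2, 1 of the 50 rose and 0 fell, and in edgeR 8 of the higher and 3 of the lower genes had an unadjusted p under 0.05. E2f7 rose by 56.6% (log2 change 0.65 ± 0.110, adjusted p = 0.00361) and was called in every alternative. Ccne2 rose by 28.5% (log2 change 0.36 ± 0.0922, adjusted p = 0.0320). Its call was lost without drugs replicate 1 (adjusted p = 0.0647), drugs replicate 2 (0.0648), vehicle replicate 1 (0.186) and day 0 replicate 1 (0.234). Leaving out day 0 replicate 2 added Pole, Lig1 and E2f3 to the rises, with log2 changes of 0.32, 0.27 and 0.32. It added falls of Gmnn and Rpa3, both at -0.41. All 7 E2F and cyclin E genes had both vehicle libraries above both day 0 libraries, and 4 of 6 polymerase and primase genes did, beside 23.9% of tested genes. Cdc6, Cdt1 and Gmnn had both vehicle libraries below both day 0 libraries, beside 26.9% of tested genes, with log2 changes of -0.12, -0.18 and -0.27 that were not called. The MCM2 to MCM7 genes differed little, with log2 changes from -0.034 to 0.078. The median of the 50 genes was 0.062, against -0.017 for all tested genes. Scaling by library totals moved the median of all genes to 0.10 and that of the 50 genes to 0.18. Then 17 of the 50 were called higher, and calls of higher genes also grew in number over all tested genes, with counts given below.

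Drugs against day 0 shares its libraries with the comparisons above, so its values are given side by side and not as separate support. Of the 50 genes 16 fell, beside 21.2% of tested genes, and 3 rose, beside 22.7% (43.9% were called either way). Both drug libraries lay below both day 0 libraries for 25 of the 50, beside 36.1% of tested genes, and above them for 10, beside 37.2%. The falls were of Mcm2, Mcm3, Mcm5, Mcm6, Mcm10, Orc1, Cdc6, Gmnn, Gins1, Gins2, Rfc2, Rfc5, Rpa3, Fen1, Chaf1b and Uhrf1. Gins2 had the largest, with a log2 change of -0.51 ± 0.142 (adjusted p = 0.0119), lost without drugs replicate 1 (adjusted p = 0.09997). The rises were of E2f2 (log2 change 0.98 ± 0.111, adjusted p = 1.87e-05), E2f7 (0.58 ± 0.109, adjusted p = 0.000992) and Pola2 (0.34 ± 0.0803, adjusted p = 0.00445). These 3 rises and the falls of Mcm2, Mcm6, Mcm10 and Chaf1b were kept in every alternative. Of the 16 falls, 6 were called without drugs replicate 1 and 9 without drugs replicate 2, and 6 genes were called higher without day 0 replicate 2. Scaling by library totals kept 7 of the 16 falls and gave 9 rises. It moved the median of the 50 genes to -0.013, against -0.11 with TMM, and that of all tested genes to 0.083, against -0.0075. More of all tested genes were then called higher and fewer lower, with counts given below. TMM without Rn45s kept all 16 falls.

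Side by side, the log2 change of Mcm2 was -0.43 for drugs against vehicle, 0.012 for vehicle against day 0 and -0.42 for drugs against day 0. E2f2 had 0.76, 0.22 and 0.98 in the same order, and E2f7 had -0.067, 0.65 and 0.58. Mcm2 therefore differed in the drug libraries, E2f7 in the day 0 libraries and E2f2 mostly in the drug libraries. Rpa1 and Pold1 had -0.025 and -0.089 for drugs against day 0, where neither was called, after 0.17 and 0.14 for vehicle against day 0.

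**Figure D5:**
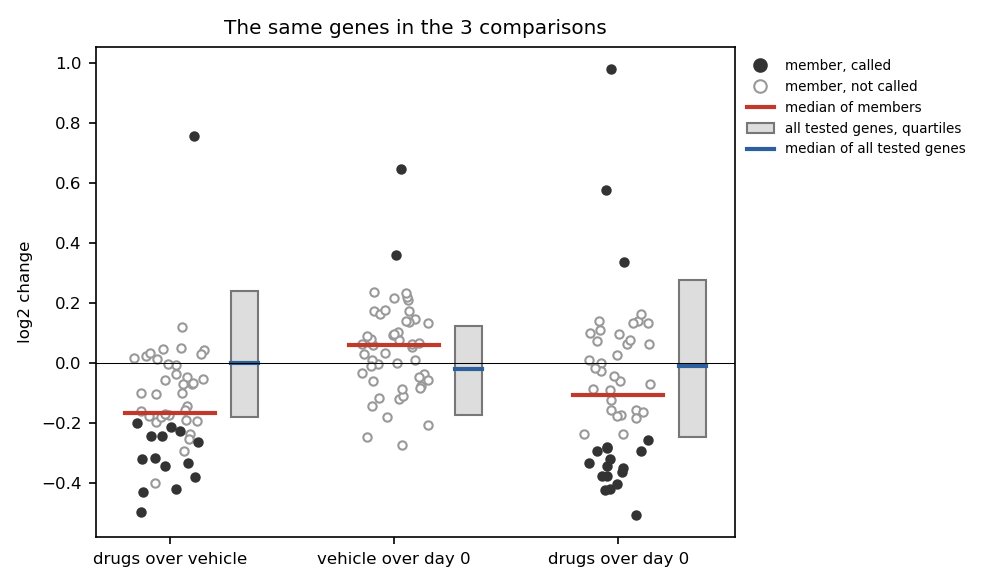
The plot of the 3 comparisons gives the log2 change of each of the 50 genes (vertical axis) as points, with a red line at their median and, for all tested genes, a grey box for the quartiles and a blue line at the median. The red line is at -0.16 for drugs against vehicle, 0.062 for vehicle against day 0 and -0.11 for drugs against day 0.

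Other genes of the pathway were taken from lists that hold none of the 50. With the drugs against vehicle, edgeR called 13.8% of all tested genes lower and 18.1% higher. Of 31 tested genes of the fork and of origin firing, 9 fell (29%) and 0 rose (edgeR), with a median log2 change of -0.077. DESeq2 called 4 lower and 0 higher, and in edgeR 2 of the higher genes had an unadjusted p under 0.05. Asf1a, a histone chaperone, had 25.6 and 25.6 CPM with the drugs, against 33.1 and 39.1 CPM with vehicle (log2 change -0.50 ± 0.0975, adjusted p = 0.00187). Supt16h, of the FACT chaperone, had 318 and 323 CPM with the drugs, against 403 and 383 CPM with vehicle (log2 change -0.29 ± 0.0751, adjusted p = 0.00986). Without drugs replicate 1, 1 gene of this list was called lower, without drugs replicate 2, 2 were, and without vehicle replicate 1 or 2, 3 were. Supt16h itself was not called without drugs replicate 1 (adjusted p = 0.126), drugs replicate 2 (0.0855) or vehicle replicate 1 (0.0699).

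Of 11 genes of deoxynucleotide supply, 3 fell and 2 rose, beside 13.8% and 18.1% of tested genes, with a median of -0.15. Dut, which removes dUTP, had 55.0 and 55.5 CPM with the drugs, against 77.2 and 88.7 CPM with vehicle (log2 change -0.58 ± 0.0966, adjusted p = 0.000540). Samhd1, which breaks down deoxynucleotides, had 59.5 and 58.4 CPM with the drugs, against 48.5 and 44.3 CPM with vehicle (log2 change 0.34 ± 0.0781, adjusted p = 0.00480). Tk1, which salvages thymidine, had 30.5 and 28.1 CPM with the drugs, against 18.6 and 25.3 CPM with vehicle (log2 change 0.42 ± 0.136, adjusted p = 0.0314). Neither rise was called without drugs replicate 1 (adjusted p = 0.0612 for Samhd1 and 0.184 for Tk1). Samhd1 was also lost without vehicle replicate 2 (0.0517). Tk1 was also lost without drugs replicate 2 (0.0785) and vehicle replicate 1 (0.274, log2 change 0.21), with library totals (adjusted p = 0.119), DESeq2 (0.0646) and the replicate block (0.0663).

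For the lists of this paragraph the shares over all tested genes were again 13.8% lower and 18.1% higher. The checkpoint list had 4 falls and 0 rises among 11 genes, with a median of -0.050 (DESeq2, 2 and 0, with 0 higher genes at an unadjusted p under 0.05). Without drugs replicate 1 or without vehicle replicate 2, 2 of its genes were called lower. Hus1, a ring subunit of the DNA damage checkpoint, had 28.2 and 29.0 CPM with the drugs, against 40.3 and 39.97 CPM with vehicle (log2 change -0.49 ± 0.0829, adjusted p = 0.000667), and Cdc25a, the phosphatase that frees CDK2, had 55.1 and 58.1 CPM with the drugs, against 75.3 and 73.8 CPM with vehicle (log2 change -0.40 ± 0.0818, adjusted p = 0.00270). Of 12 other E2F, DP and retinoblastoma genes 2 fell, E2f4 and Tfdp1, or 16.7%, near the 13.8% of all tested genes. E2f4 had 47.1 and 50.1 CPM with the drugs, against 59.5 and 61.6 CPM with vehicle (log2 change -0.32 ± 0.0746, adjusted p = 0.00630). Tfdp1 had 174 and 181 CPM with the drugs, against 202 and 208 CPM with vehicle (log2 change -0.21 ± 0.0684, adjusted p = 0.0362). E2F4 is a repressor in quiescent cells and DP1, from Tfdp1, is the partner of the activator E2Fs. Neither fall was called without drugs replicate 1, where the log2 changes were -0.27 for E2f4 and -0.18 for Tfdp1. The Tfdp1 call was also lost without drugs replicate 2, vehicle replicate 1 or vehicle replicate 2 (log2 changes -0.24, -0.23 and -0.20). It was lost with DESeq2 (adjusted p = 0.0672) and with the replicate block in edgeR (0.0722) as well. Among 20 genes of G2 and mitosis 6 fell and 0 rose, with a median of -0.10 (DESeq2, 5 and 0, with 1 higher gene at an unadjusted p under 0.05), and without drugs replicate 1 or 2, 2 falls were called. Plk1, a mitotic kinase, had 51.5 and 55.2 CPM with the drugs, against 72.3 and 74.6 CPM with vehicle (log2 change -0.46 ± 0.0725, adjusted p = 0.000381). Mybl2, a factor for mitotic genes, had 74.9 and 70.0 CPM with the drugs, against 99.9 and 97.1 CPM with vehicle (log2 change -0.44 ± 0.0831, adjusted p = 0.00136). Their summed levels were 4338 to 4398 CPM with the drugs, 4507 to 4637 CPM with vehicle and 4132 to 4286 CPM at day 0. Mki67 and Top2a carry much of these sums. Gene by gene, 13 of the 20 were below 0 for drugs against day 0, with a median log2 change of -0.14. There 5 fell (25%) and 1 rose (5%), beside 21.2% and 22.7% of tested genes. Between vehicle and day 0, edgeR called 1 rise in each of the checkpoint, E2F family and mitosis lists, beside 3.75% of tested genes.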

How the data were processed

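Polyadenylated RNA of 6 libraries was measured, 2 per group, which the series' design text calls biological replicates without saying more of the cultures. The p-values measure the spread between these libraries. The deposited table holds raw read counts per gene, and per the submitters' processing notes STAR 2.7.0f, deepTools 3.0.2 and mm10 were used, while the labels call the table featurecount. The deposited table's gene length, the other value used, is in base pairs as the authors gave it, and served for RPKM. The sources used here do not give the strand setting, the annotation release or the treatment of reads that match several places. Exons of Orc3, Orc4, Gins2, Rfc4, Lig1 and Ccne2 overlap genes on the other strand (Akirin2, Acvr2a, Gse1, Eif4a2, 6330408A02Rik and Ints8), so their counts are uncertain.

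The filterByExpr function of edgeR kept 11283 of 23337 genes. Counts were scaled by TMM and fitted in 1 model of 3 groups with 3 residual degrees of freedom in edgeR 4.0.16 (R 4.3.3), with the quasi-likelihood F test and Benjamini-Hochberg adjustment over all 11283 genes at 0.05. The SE of a log2 change came from the F statistic. Total counts were 12290882 and 15310378 with the drugs, 12459793 and 11305666 with vehicle and 16948697 and 13139172 at day 0, and Orc1, for example, rests on 191 and 190 counts with the drugs. Leaving out Rn45s, chi-square over its degrees of freedom between replicates was 1.86 (drugs), 4.96 (vehicle) and 7.97 (day 0), above the 1 of pure counting error. Same-numbered libraries deviated together with r = 0.136 across genes between drugs and vehicle, -0.34 between vehicle and day 0, and -0.085 between drugs and day 0, so numbers were not used to pair.

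Alternatives were other scalings, no filter, DESeq2 1.42.0, only the 2 groups compared, a replicate block and leaving out each library. The genes and lists were chosen with earlier results of these data known. Of 128 listed other genes and markers 125 were found, 3 by an older symbol. Every member may be named. From each other list up to 2 called genes with the smallest p and 2 with the largest change are named. Promoters were taken for called genes with the smallest p in each role group and for those called the other way, up to 6, and Rfc2 was passed over.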

Additional observations from a re-analysis of the deposited data

How the results depend on the processing

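Among the 50 genes no called change reversed in any alternative. Signs that differed where neither value was called were not counted. Scaling by library totals gave medians of -0.20 for drugs against vehicle, 0.18 for vehicle against day 0 and -0.013 for drugs against day 0. Medians of all tested genes were then -0.031, 0.10 and 0.083, in the same order. This scaling called 17 of the 50 higher for vehicle against day 0, and 9 higher and 7 lower for drugs against day 0. Over all genes it called 1741 higher and 216 lower for vehicle against day 0 and 3141 higher and 1321 lower for drugs against day 0. For drugs against vehicle, deoxynucleotide supply then had 1 rise. With no filter, vehicle against day 0 had 4 of the 50 called higher, and 821 genes higher and 843 lower over all. DESeq2 called 8 of the 50 lower for drugs against vehicle, with 4 falls of fork and origin genes, 1 rise in deoxynucleotide supply, 2 falls in the checkpoint list and 1 in the E2F family list. For vehicle against day 0 it called 1 of the 50 higher, and 255 higher and 236 lower over all genes. Fitting only the 2 groups compared gave 1 rise of fork and origin genes and 1 of mitosis genes for drugs against vehicle, and for vehicle against day 0 1 of the 50 higher, with 269 higher and 258 lower over all. With the replicate block, whose pairing the labels do not state, drugs against vehicle had 4 falls of fork and origin genes, 1 rise in deoxynucleotide supply and 1 fall in the E2F family list. It kept 10 of the 14 falls, losing Orc2, Mcm4, Rpa1 and Pold1. For vehicle against day 0 the block called 1 of the 50 higher, and 222 higher and 261 lower over all. Crossing the day 0 numbers in the block, chosen after seeing the data, called 7 of the 50 higher and 1 lower, and 1097 higher and 1283 lower over all. The looser letters TTNNCGC, which the stricter letters contain, stood in 72.5% of the replication gene windows. Causes were not tested.

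Leaving out each library in turn gave 4 to 19 falls of the 50 for drugs against vehicle (1251 to 2291 genes higher and 582 to 1900 lower over all), with medians from -0.19 to -0.11. For vehicle against day 0 it gave 1 to 5 rises and 0 to 2 falls (155 to 851 higher and 196 to 1161 lower over all). For drugs against day 0 it gave 3 to 6 rises and 6 to 18 falls (1667 to 2632 higher and 1205 to 2625 lower over all), with medians from -0.14 to -0.083. In the other lists, for drugs against vehicle, it gave 0 to 1 rise and 1 to 9 falls of fork and origin genes, 0 to 2 rises and 1 to 3 falls in deoxynucleotide supply, 2 to 4 falls in the checkpoint list, 0 to 2 in the E2F family list, and 0 to 1 rise and 2 to 6 falls of mitosis genes. A group left with 1 library is assumed to vary like the others. Every change rests on 2 libraries a group, which limits precision for changes this small.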
